A study of Mus musculus with 8 samples.

Results

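The ATP-binding cassette (ABC) genes were taken from the deposited expression table as the protein-coding genes whose symbol is Abc, a subfamily letter from a to g and a number. This gave 49 genes of the 55416 in the table, with 16 in subfamily A, 9 in B, 10 in C, 4 in D, 1 in E, 3 in F and 6 in G. Bulk RNA sequencing of mouse liver supplied 8 libraries in 4 groups of 2. Floxed mice (Glul flox/flox) carry the conditional allele of glutamine synthetase and served as controls. KO mice (GlulΔlyz2) lose the gene in cells that make Cre recombinase from the Lyz2 locus, chiefly macrophages, monocytes and neutrophils, and hepatocytes are not among the targeted cells. Mice of each genotype had been injected into the peritoneum with H2O or with lipopolysaccharide (LPS, 1 mg/kg) plus D-galactosamine (D-GalN, 200 mg/kg), a combination in which LPS activates macrophages and D-GalN depletes uridine nucleotides in hepatocytes and sensitises them to tumour necrosis factor. The sources used here do not give age, sex or time of collection, nor do they say that the 2 libraries of a group are separate animals, and p-values therefore rest on the spread between libraries.

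ABC proteins bind and hydrolyse ATP, and most of them use it to move a substrate across a membrane. In hepatocytes, pumps of the canalicular membrane drive bile formation, pumps of the sinusoidal membrane return conjugates to the blood, and sterol transporters move cholesterol to lipoproteins or into bile. Others sit in peroxisomes, mitochondria and lysosomes, and those of subfamilies E and F have no membrane domain and act in translation. The genes are described below in those roles, most of which are textbook assignments.

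Levels are given as FPKM, the fragments of a gene scaled to its length and to the fragments assigned to all genes, which can be compared between genes of different length. A library held between 18381670 and 24799143 assigned fragments, and at that depth 1 fragment adds between 0.0403 and 0.0544 FPKM to a 1 kb gene. Differences are log2 differences of FPKM + 1 with their standard error (SE). Adding 1 FPKM understates the change of genes that are that low or lower, so ratios of group means in FPKM are given beside some of them. The words rose, fell and differed are kept for genes where the Benjamini-Hochberg adjusted p of limma, taken over all 13708 genes tested, was under 0.05. Where a call was lost on leaving out a library, a log2 range in brackets covers the omission of each of the 8 libraries in turn. The libraries are called by genotype, treatment and number, with LPS/D-GalN libraries called injured. Glul had 107 and 106 FPKM in the floxed H2O pair of libraries, 358 and 237 in the injured floxed pair, 89.8 and 134 in the KO H2O pair and 74.6 and 90.1 in the injured KO pair. The H2O libraries of the genotypes overlapped, and bulk liver, in which hepatocytes make most of the Glul transcript, gives no check of its loss in myeloid cells. All 6 hepatocyte markers (Alb, Apoa1, Ttr, Serpina1c, Tat and Cps1) were present in each library, with a summed level of 26977 to 37911 FPKM. That sum was 27758 and 28150 FPKM in injured floxed and 37911 and 37139 FPKM in injured KO livers. Injured KO libraries 1 and 2 had 2.00% and 0.285% of their fragments in haemoglobin genes, against at most 0.0228% in the other 6, so that injured KO library 1 stands apart in this respect. Without it, 26 in place of 28 ABC genes passed for injury in KO livers, 12 passed between the injured genotypes as with it, and 8 in place of 13 passed for the difference between the genotypes' responses.

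The test took in the 31 of the 49 ABC genes that had 1 FPKM or more in 2 or more libraries, and 16 stayed under 1 FPKM in every library. Among those tested, Abcc1 reached the limit through the injured KO livers alone and Abcb6 and Abcg3 through H2O-treated livers alone, so these 3 had to differ between groups to be tested, and 27 reached it in all 4 groups. Abcg1 reached it in floxed H2O and injured KO livers alone, so it too had to differ between groups. Injury lowered most of the tested ABC genes in each genotype. In floxed livers 24 fell, 3 rose and 4 did not pass, which is 77.4% lower and 9.68% higher, where 38.8% of all genes tested fell, 18.5% rose and 57.3% passed in either direction. In KO livers 22 fell, 6 rose and 3 did not pass, which is 71% lower and 19.4% higher, where 40.7% of all genes fell, 22.3% rose and 63.0% passed. The median log2 difference of the tested ABC genes was -1.17 in floxed and -1.03 in KO livers, beside -0.28 in each genotype over all genes tested. After centring each library on its median, which brought the median of all genes to -0.01 in floxed livers, 22 ABC genes fell and 6 rose there. After quantile normalisation 21 fell and 6 rose. Of all genes called in floxed livers 32.3% were higher as reported, 49.7% after median centring and 50.7% after quantile normalisation.

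Between the injured genotypes 5 ABC genes were higher and 7 lower in KO livers, and 19 did not pass, so that 38.7% passed where 52.5% of all genes did (25.3% higher and 27.2% lower). Median centring turned this split to 7 higher and 6 lower. Of all genes called in this comparison, 48.2% were higher as reported and 52.6% after median centring. The difference between the genotypes' responses to injury, the genotype by injury interaction, passed for 13 ABC genes, 9 with a higher response in KO livers and 4 with a lower one. That is 41.9%, where 36.0% of all genes passed, 20.9% higher and 15.1% lower, so the share of ABC genes that passed lay near that of all genes. After quantile normalisation the split was 6 higher and 5 lower. Of all genes with an interaction, 58.1% were higher as reported and 48.1% after quantile normalisation. Under H2O no ABC gene passed between the genotypes with limma on FPKM, where 0.00730% of all genes did. The unadjusted p was under 0.05 for Abca2, Abcc5 and Abcg3, 3 of the 31, and voom of limma on the recovered fragments called 0 as well.

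**Figure D1:**
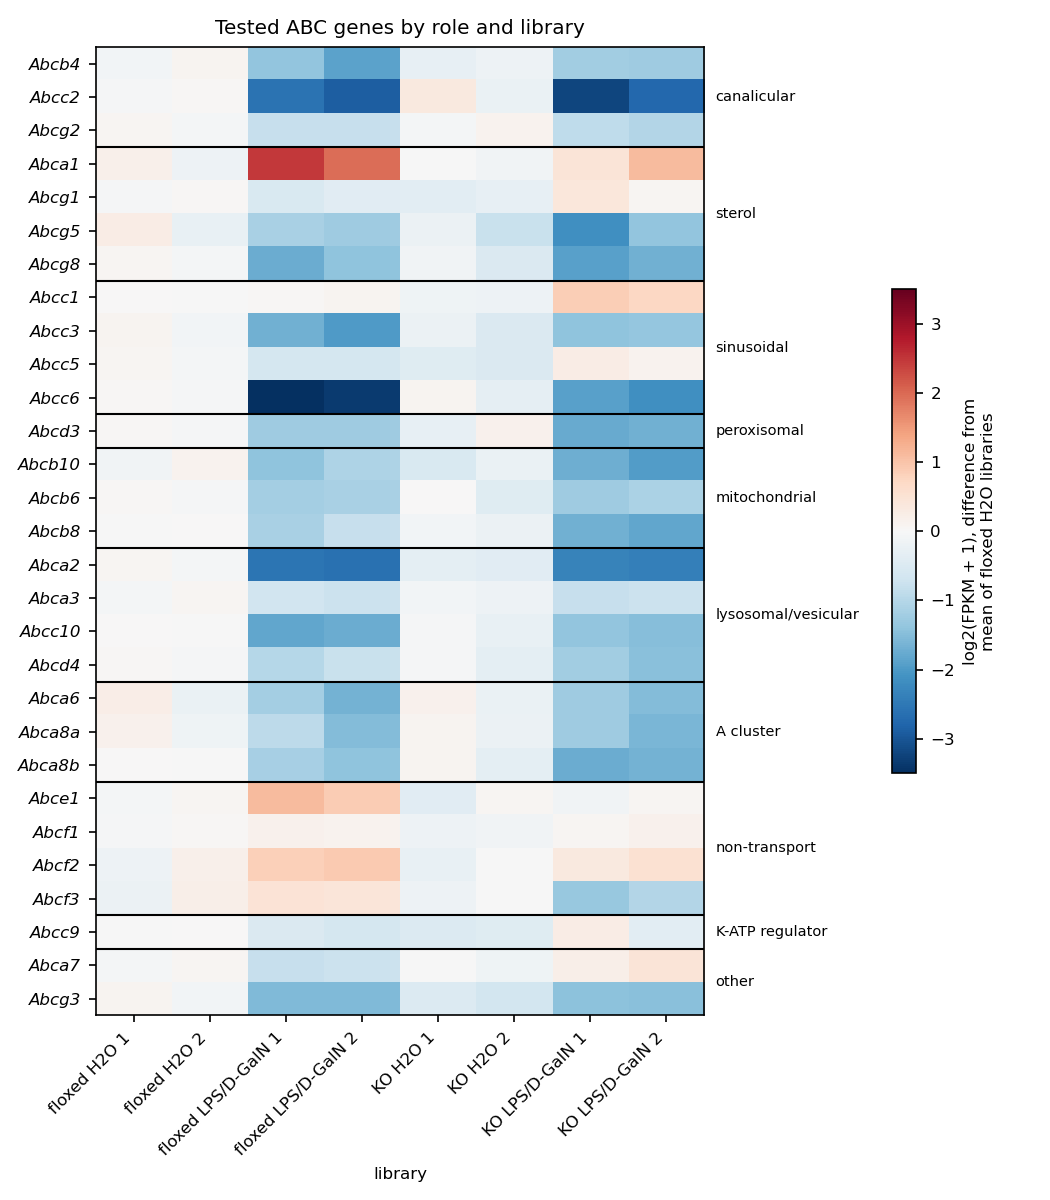
Log2(FPKM + 1) of 29 of the 31 tested ABC genes (rows, grouped by role) in each of the 8 libraries (columns), as the difference from the mean of the 2 H2O-treated floxed libraries; blue is lower, red is higher. Most rows are blue in the 4 injured libraries, Abca1 is reddest in injured floxed livers at a log2 difference of 2.21, and Abcc6 is darkest blue there at -3.45.

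The order of the levels changed with injury. In H2O-treated livers of both genotypes Abcc2, Abcc6, Abcd3, Abcc3 and Abcg5 were the 5 most abundant of the 49 genes, in that order, with group means of 76.0 down to 33.0 FPKM (floxed) and 80.2 down to 23.2 FPKM (KO). Abcc2 and Abcc6 overlapped in both genotypes, and Abcc6 and Abcd3 overlapped in KO livers, while the other neighbours in this order did not. In injured livers Abca1 stood first, with 25.5% of the summed ABC level in floxed and 12.6% in KO livers. Behind it came Abce1, Abcd3, Abcf2, Abcf3 and Abcf1 in injured floxed livers, at means of 26.1 to 19.7 FPKM, and Abcf1, Abcc6, Abcc3, Abcf2 and Abcd3 in injured KO livers, at means of 19.4 to 15.7 FPKM. Abca1 and then Abce1 stood clear of the rest in injured floxed livers, and Abcf2 overlapped both Abcd3 and Abcf3, which did not overlap each other. In injured KO livers the genes from Abcf1 to Abcd3 each overlapped the next. Summed over the 49 genes the level was 513 ± 16.0 FPKM in H2O-treated floxed livers, 282 ± 28.0 in injured floxed livers, 462 ± 42.1 in H2O-treated KO livers and 206 ± 13.5 in injured KO livers (SD, n = 2 each). In bulk liver, fewer cells of a type and less RNA per cell cannot be told apart, which holds for each level below.

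**Figure D2:**
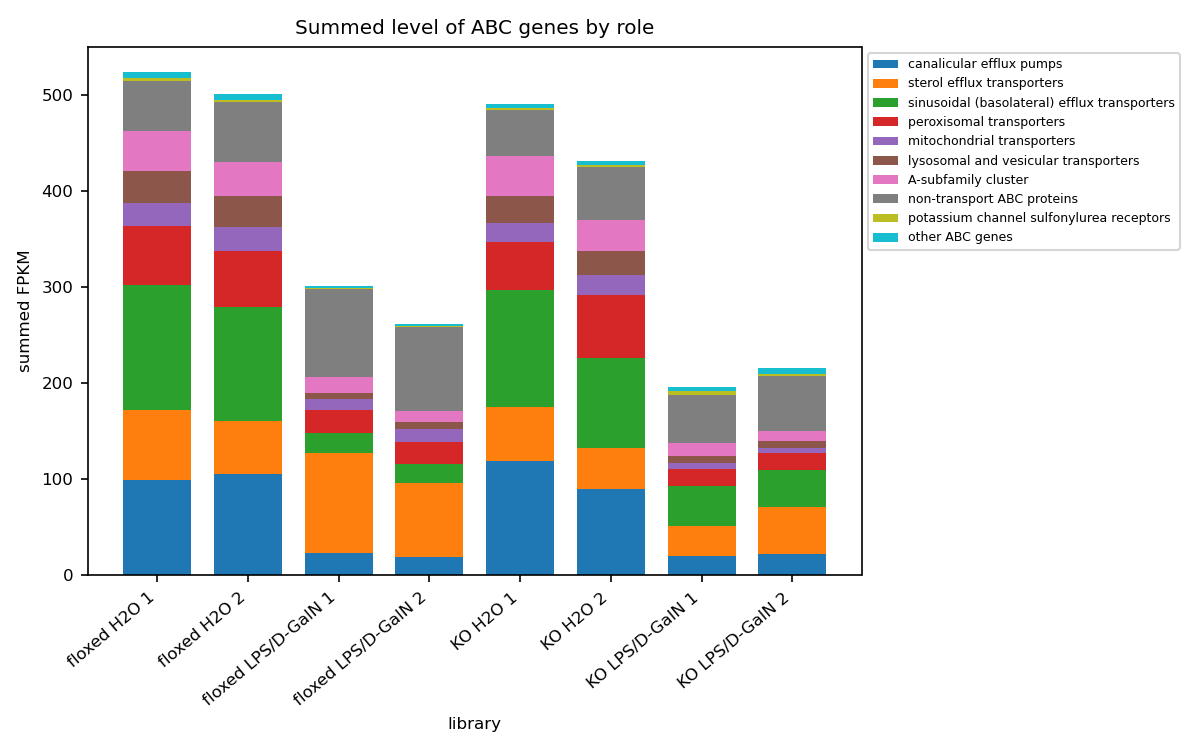
Summed FPKM of the 49 ABC genes in each of the 8 libraries (bars from 0), divided by role. The canalicular and sinusoidal parts are smaller in all 4 injured libraries than in the 4 H2O libraries, and the sterol part is largest in the injured floxed libraries, with a mean of 90.6 FPKM.

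Among the canalicular pumps, the 3 tested genes fell in each genotype, and none passed between the injured genotypes. Their median log2 difference was -1.63 in floxed and -1.01 in KO livers. Abcc2 (ENSMUSG00000025194, chromosome 19) encodes the pump that exports bilirubin glucuronides and glutathione conjugates into bile. It had 73.4 and 78.5 FPKM in the floxed H2O pair of libraries, 11.8 and 9.33 in the injured floxed pair, 96.1 and 64.4 in the KO H2O pair and 7.25 and 10.5 in the injured KO pair. In each genotype both injured libraries lay far below both H2O libraries, and the injured libraries of the genotypes overlapped. Abcc2 fell in both genotypes, with a log2 difference of -2.74 ± 0.25 in floxed livers (adjusted p = 0.000115) against -3.03 ± 0.25 in KO livers (adjusted p = 5.35e-05). Its mean level was 7.20-fold and 9.06-fold higher under H2O than after injury. The interaction was -0.29 ± 0.35 (adjusted p = 0.552).

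Abcb4, the flippase that delivers phosphatidylcholine to bile, had 17.0 and 19.4 FPKM in the floxed H2O pair of libraries, 6.36 and 4.24 in the injured floxed pair, 14.7 and 16.0 in the KO H2O pair and 7.21 and 7.04 in the injured KO pair. Injured libraries lay below H2O libraries throughout, and the injured KO libraries lay above the injured floxed ones. Abcb4 fell in each genotype, at -1.63 ± 0.19 in floxed livers (adjusted p = 0.00031) against -1.01 ± 0.19 in KO livers (adjusted p = 0.00227). The difference between the injured genotypes was 0.39 ± 0.19 (adjusted p = 0.116) and the interaction 0.62 ± 0.26 (adjusted p = 0.103). Without injured floxed library 1 these became 0.63 (adjusted p = 0.04) and 0.87 (adjusted p = 0.0483). Abcg2, a pump for sulfate conjugates, urate and porphyrins, fell to log2 differences of -0.81 in floxed (adjusted p = 0.00195) against -0.99 in KO livers (adjusted p = 0.000621), from 8.57 and 7.61 FPKM to 4.15 and 4.19, and from 7.60 and 8.93 to 3.86 and 3.48. Its groups did not overlap between H2O and injury in either genotype.

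The multidrug pumps Abcb1a and Abcb1b, close copies of each other between which reads can be split, were too low to be tested. Abcb1b had 0.147 and 0.203 FPKM in the floxed H2O pair of libraries, 0.673 and 0.892 in the injured floxed pair, 0.0704 and 0.266 in the KO H2O pair and 1.27 and 0.84 in the injured KO pair. Its injured libraries lay above its H2O libraries in both genotypes. With voom on the recovered fragments, a setting chosen after the values were seen, Abcb1b rose by 2.15 ± 0.46 in floxed (adjusted p = 0.00183) and by 2.94 ± 0.50 in KO livers (adjusted p = 0.000246). With limma and no filter the differences were 0.60 (adjusted p = 0.0516) and 0.81 (adjusted p = 0.0147). Abcb1a lay between 0.196 and 0.397 FPKM in all 8 libraries and passed in no comparison with voom.

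RefSeq promoter windows (GRCm38.p6), 250 bases before to 50 after a start site, were found for 37 of the 49 genes, in 44 windows. They were searched on both strands for 5 short motifs, and the share of windows with a match is given beside that of all 32851 windows. The antioxidant element TGACNNNGC was in 7 ABC windows (15.9% beside 12.4%), the NF-kB core GGGACTTTC in 0 (beside 0.353%), the E-box CACGTG in 6 (13.6% beside 7.15%), the GC box GGGCGG in 21 (47.7% beside 35.7%) and the nuclear receptor core AGGTCA in 6 (13.6% beside 16.3%). A match describes letters in the window and no more. The 250 bases before the start of Abcc2, the most abundant canalicular gene here, and of the low pair Abcb1a and Abcb1b are shown 5′ to 3′ on the strand of the gene, with matches in capitals. Abcc2 lies at chr19:43782058-43782307 (plus strand), Abcb1a at chr5:8566841-8567090 (plus strand) and Abcb1b at chr5:8797897-8798146 (plus strand).
Abcc2: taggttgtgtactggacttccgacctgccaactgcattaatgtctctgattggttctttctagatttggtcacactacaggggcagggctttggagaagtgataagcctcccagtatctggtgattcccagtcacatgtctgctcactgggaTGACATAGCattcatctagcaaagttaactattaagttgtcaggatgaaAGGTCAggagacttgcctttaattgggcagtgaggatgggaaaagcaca
Abcb1a: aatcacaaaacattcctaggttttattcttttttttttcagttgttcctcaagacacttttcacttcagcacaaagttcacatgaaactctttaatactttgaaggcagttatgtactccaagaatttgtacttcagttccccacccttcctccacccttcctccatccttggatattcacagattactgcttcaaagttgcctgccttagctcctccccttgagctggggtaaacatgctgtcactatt
Abcb1b: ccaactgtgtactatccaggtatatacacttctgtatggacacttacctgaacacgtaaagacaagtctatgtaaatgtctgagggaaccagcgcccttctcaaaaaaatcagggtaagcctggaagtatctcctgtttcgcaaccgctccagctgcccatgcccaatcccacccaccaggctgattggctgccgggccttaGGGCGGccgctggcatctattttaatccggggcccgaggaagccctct
The capitals mark an antioxidant element that starts 98 bases before the start of Abcc2, a nuclear receptor core 49 bases before it, and a GC box 48 bases before the start of Abcb1b. The printed stretch of Abcb1a holds none of the 5 motifs, and its window holds an antioxidant element within the 50 bases after the start, on the opposite strand.

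The genes that work beside the canalicular pumps moved in both directions. Of 6 scaffold and flippase genes 4 rose and 1 fell in floxed livers and 3 rose and 3 fell in KO livers, with medians of 0.82 and 0.16. In floxed livers 66.7% rose and 16.7% fell, beside 18.5% and 38.8% of all genes. In KO livers 50% rose and 50% fell, beside 22.3% and 40.7%. Ezr and Msn, which tie membrane proteins to actin, rose by 1.23 and 0.85 in floxed and by 3.26 and 3.08 in KO livers. Bulk liver does not show which cells made these transcripts. The part of cells other than hepatocytes in the levels of Ezr and Msn was not tested. Rdx, the relative that prevails at the hepatocyte canaliculus, had a difference of -0.45 in floxed (adjusted p = 0.0608) and fell by 1.28 in KO livers (adjusted p = 0.000592). Atp8b1, a flippase of the canalicular membrane, rose by 0.78 in floxed and fell by 0.60 in KO livers, with an interaction of -1.38 ± 0.24 (adjusted p = 0.00532). Of 8 tested hepatocyte carriers that take up substrates or export cations, 6 fell and 0 rose in each genotype, among them Slco2b1 at -2.25 in floxed and -1.76 in KO livers and the organic anion carrier Slco1a4 at -1.50 and -1.66. Of 14 nuclear receptors and other regulators of ABC genes, 10 fell and 2 rose in floxed and 8 fell and 2 rose in KO livers. In floxed and KO livers the log2 differences were -3.70 and -3.0 for Nr1i3, the constitutive androstane receptor, -1.65 and -2.80 for the bile acid receptor Nr1h4, and -1.14 and -2.65 for Ppara, and all 6 passed. Of the carriers 75% fell in each genotype, and of the regulators 71.4% in floxed and 57.1% in KO livers, where 38.8% and 40.7% of all genes fell.

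Sterol transporters split in their response. Abca1 (ENSMUSG00000015243, chromosome 4) encodes the transporter that loads cholesterol and phospholipid onto apolipoprotein A-I, and it was the ABC gene that rose most in floxed livers. It had 16.6 and 12.6 FPKM in the floxed H2O pair of libraries, 85.1 and 58.3 in the injured floxed pair, 14.2 and 13.3 in the KO H2O pair and 20.1 and 32.0 in the injured KO pair. The injured floxed libraries stood above all others, and the injured KO libraries stood above the H2O libraries but below the injured floxed ones. Abca1 rose by 2.21 ± 0.27 in floxed livers (adjusted p = 0.000433), a 4.92-fold higher mean, and by 0.84 ± 0.27 in KO livers (adjusted p = 0.0279), a 1.89-fold higher mean. With injury the KO level was the lower, at -1.44 ± 0.27 (adjusted p = 0.00359), and the interaction was -1.37 ± 0.39 (adjusted p = 0.0283). The rise in KO livers did not pass without KO H2O library 1 or 2 or injured KO library 2 (adjusted p 0.077 to 0.157), nor in 4 other settings, and was 0.52 without that last library. The interaction did not pass without floxed H2O library 2, injured floxed library 1, KO H2O library 1 or 2, or injured KO library 1 (-1.69 to -1.05, adjusted p 0.0598 to 0.0979), nor in 2 settings without the filter. The 250 bases before the Abca1 start (GRCm38.p6, chr4:53159896-53160145, minus strand) are shown because this gene moved against most others, with 2 GC boxes and an E-box in capitals.
Abca1: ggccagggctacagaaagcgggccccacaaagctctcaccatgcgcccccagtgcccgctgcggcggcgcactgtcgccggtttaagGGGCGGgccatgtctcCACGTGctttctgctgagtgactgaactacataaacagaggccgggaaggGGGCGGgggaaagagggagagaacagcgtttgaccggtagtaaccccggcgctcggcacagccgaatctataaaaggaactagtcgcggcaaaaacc

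Abcg5 and Abcg8 encode the 2 subunits of the transporter that secretes cholesterol into bile. They are transcribed away from each other from start sites with 109 bases between them in RefSeq (GRCm38.p6, chr17:84683012-84683120, shown on the plus strand), a stretch that holds none of the 5 motifs and is printed because both genes fell.
Abcg5 and Abcg8: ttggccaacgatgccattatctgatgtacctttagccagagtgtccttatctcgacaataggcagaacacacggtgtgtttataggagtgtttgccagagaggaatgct
Abcg8 had 16.1 and 14.7 FPKM in the floxed H2O pair of libraries, 3.91 and 5.15 in the injured floxed pair, 14.1 and 10.6 in the KO H2O pair and 3.37 and 4.12 in the injured KO pair. Abcg5 had 39.2 and 26.9, 14.4 and 13.3, 27.8 and 18.5, and 6.53 and 11.8 FPKM in the same order. For both genes the injured libraries lay below the H2O libraries of their genotype, and the H2O libraries of Abcg5 differed among themselves more than those of Abcg8. Abcg8 fell, at -1.58 ± 0.19 in floxed livers (adjusted p = 0.000391) against -1.49 ± 0.19 in KO livers (adjusted p = 0.000381). So did Abcg5, at -1.18 ± 0.31 (adjusted p = 0.0133) and -1.27 ± 0.31 (adjusted p = 0.00835). The fall of Abcg5 did not pass in floxed livers without floxed H2O library 1 or injured floxed library 1 or 2 (-1.44 to -0.91, adjusted p 0.0547 to 0.084), nor in 2 other settings. In KO livers it did not pass without KO H2O library 1 or injured KO library 1 (adjusted p 0.0541 and 0.0586). Neither gene passed between the injured genotypes (adjusted p = 0.146 for Abcg5 and 0.371 for Abcg8). Without injured KO library 2 the difference of Abcg5 was -0.98 (adjusted p = 0.0447).

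Abcg1, which exports cholesterol to high-density lipoprotein and is abundant in macrophages, moved in opposite directions in the 2 genotypes. It had 1.02 and 1.13 FPKM in the floxed H2O pair of libraries, 0.428 and 0.570 in the injured floxed pair, 0.597 and 0.716 in the KO H2O pair and 1.72 and 1.19 in the injured KO pair. The injured floxed libraries were the lowest and the injured KO libraries the highest. Abcg1 fell by 0.47 in floxed livers (adjusted p = 0.0327), rose by 0.56 in KO livers (adjusted p = 0.0146), and was 0.71 higher in KO under injury (adjusted p = 0.00694). The interaction of 1.03 ± 0.22 (adjusted p = 0.0106) passed in every setting tried. Abcg1 entered the test only through floxed H2O and injured KO livers, so the direction of that interaction was favoured by the filter. Its floxed call was lost without any 1 of the 4 floxed libraries (adjusted p 0.0663 to 0.15) and in 3 other settings, such as median centring (0.284). The rise in KO livers did not pass without KO H2O library 1 or injured KO library 1 (adjusted p 0.0573 and 0.0623). Abcg4, a related cholesterol exporter known from brain, stayed at or under 0.186 FPKM. Of 6 other genes that the liver X receptors activate, 4 fell and 0 rose in floxed livers and 2 fell and 2 rose in KO livers (66.7% and 33.3% lower, beside 38.8% and 40.7% of all genes). Srebf1 and Lpcat3 were among those that fell in both, at -3.06 and -2.57 and at -2.32 and -2.16, opposite to Abca1. The 2 that rose in KO livers moved in the direction of Abca1 there. The part of these receptors in the level of Abca1 was not tested. Pltp fell by 1.80 in floxed livers and had a difference of 0.25 in KO livers (adjusted p = 0.368).

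Among the sinusoidal exporters, Abcc6, Abcc3 and Abcc5 had a higher response in KO than in floxed livers. So did Abcc1, which entered the test only through the injured KO livers, where it is high, so that its direction was favoured by the filter. The summed level of the sinusoidal exporters was 124 ± 8.62 FPKM in H2O-treated floxed livers, 20.3 ± 1.10 in injured floxed livers, 108 ± 19.4 in H2O-treated KO livers and 39.8 ± 2.21 in injured KO livers (SD, n = 2 each). Abcc6 (ENSMUSG00000030834, chromosome 7), whose product mediates ATP release from hepatocytes and is lost in human pseudoxanthoma elasticum, had 76.5 and 71.6 FPKM in the floxed H2O pair of libraries, 5.36 and 6.39 in the injured floxed pair, 78.7 and 59.4 in the KO H2O pair and 19.0 and 16.0 in the injured KO pair. The injured libraries were far below the H2O libraries in both genotypes, and the injured KO libraries were above the injured floxed ones. Abcc6 fell, with a log2 difference of -3.45 ± 0.19 in floxed livers (adjusted p = 2.04e-05), the largest fall of the 31 genes on this scale, and of -1.91 ± 0.19 in KO livers (adjusted p = 0.000128). It was 1.43 ± 0.19 higher in injured KO than injured floxed livers (adjusted p = 0.000893), a 2.98-fold higher mean, with an interaction of 1.54 ± 0.27 (adjusted p = 0.00566). These 4 calls held in every setting tried. The hepatocyte markers Apoa1, Ttr and Serpina1c were also higher in both injured KO than in both injured floxed libraries, Tat and Cps1 were lower, and Alb overlapped. The part of this in the levels of Abcc6 and Abcc3 was not tested.

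Abcc3, which returns glucuronides and bile acid conjugates to the blood, had 50.3 and 43.4 FPKM in the floxed H2O pair of libraries, 13.8 and 11.1 in the injured floxed pair, 40.5 and 32.6 in the KO H2O pair and 16.9 and 17.6 in the injured KO pair. The injured KO libraries lay above the injured floxed ones and below all H2O libraries. Abcc3 fell, at -1.83 in floxed livers (adjusted p = 0.000176) against -1.03 in KO livers (adjusted p = 0.00188). Its difference between the injured genotypes was 0.44 ± 0.18 (adjusted p = 0.0765), and its interaction of 0.80 ± 0.26 passed narrowly (adjusted p = 0.0468). That interaction did not pass without any of 7 libraries, KO H2O library 1 being the exception (0.65 to 0.95, adjusted p 0.0642 to 0.149), nor in 6 other settings, with the highest adjusted p, 0.159, after quantile normalisation.

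The other sinusoidal genes were low and highest in injured KO livers. Abcc5, an exporter of cyclic nucleotides and other organic anions, had 2.90 and 2.53 FPKM in the floxed H2O pair of libraries, 1.42 and 1.44 in the injured floxed pair, 1.76 and 1.59 in the KO H2O pair and 3.40 and 3.02 in the injured KO pair. Injury took the floxed libraries down and the KO libraries up, without overlap. Abcc5 fell by 0.61 in floxed livers (adjusted p = 0.00455, 0.0939 after quantile normalisation), rose by 0.65 in KO livers (adjusted p = 0.00282), was 0.79 higher in KO under injury (adjusted p = 0.00173), and had an interaction of 1.26 ± 0.18 (adjusted p = 0.00281). Abcc1, the exporter of glutathione conjugates and leukotriene C4, had 0.309 and 0.308, 0.336 and 0.407, 0.168 and 0.159, and 1.37 and 1.17 FPKM in the same order of groups. Its injured KO libraries alone exceeded 1 FPKM. Abcc1 rose by 0.96 ± 0.14 in KO livers (adjusted p = 0.000684), a 7.79-fold higher mean, and the floxed difference was 0.07 ± 0.14 (adjusted p = 0.7, and 0.0357 after quantile normalisation). It was 0.73 higher in injured KO than injured floxed livers (adjusted p = 0.00376), and the interaction was 0.90 ± 0.20 (adjusted p = 0.0117). Abcc4, an exporter of bile acids and cyclic nucleotides, was not tested at 0.228 and 0.207, 0.120 and 0.199, 0.191 and 0.145, and 0.707 and 0.544 FPKM. With voom it rose by 1.87 ± 0.39 in KO livers (adjusted p = 0.00109) and was 1.96 ± 0.38 higher in injured KO than injured floxed livers (adjusted p = 0.0011).

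Several of these low genes are also made by blood and vessel cells, and the summed markers of those cells were higher in injured KO than injured floxed livers. The summed level of 6 neutrophil markers was 4.69 to 8.94 FPKM in H2O libraries, 96.3 and 162 in injured floxed and 946 and 983 in injured KO livers, with Mpo under 1 FPKM in every library. Markers of macrophages and monocytes (7 genes, Ccr2 under 1 FPKM throughout) summed to 59.6 and 97.1, 28.4 and 41.7, 19.5 and 22.5, and 97.6 and 78.3 FPKM in floxed H2O, injured floxed, KO H2O and injured KO libraries. Lyz2, whose locus carries Cre in KO mice, held 33.7 and 72.4 FPKM of the floxed H2O sums and 5.27 and 9.92 FPKM of the KO H2O sums. In the same order, the 5 Kupffer cell markers summed to 153 and 109, 28.9 and 47.0, 66.8 and 66.9, and 275 and 131 FPKM, and the 5 endothelial markers to 30.3 and 28.1, 10.4 and 13.4, 25.4 and 23.2, and 81.7 and 49.3 FPKM. Of the injured KO sums, Marco held 181 and 79.3 FPKM and Cdh5 57.9 and 36.9 FPKM. Cdh5 and Pecam1 were higher in injured KO than KO H2O libraries, Kdr and Stab2 were lower, and Clec4g overlapped. Kdr and Stab2 overlapped between the injured genotypes. No marker of these lists was at 0 in all libraries. Abcc1, Abcc4, Abcc5, Abcg1, Abca7 and Abcc9 shared with the sums of these 4 lists that injured KO libraries exceeded injured floxed libraries. The responses of floxed livers were not shared throughout. There the neutrophil sum was higher after injury and the other sums were lower, while Abcc5, Abcg1, Abca7 and Abcc9 fell. The part of those cells in the levels of these genes was not tested.

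**Figure D3:**
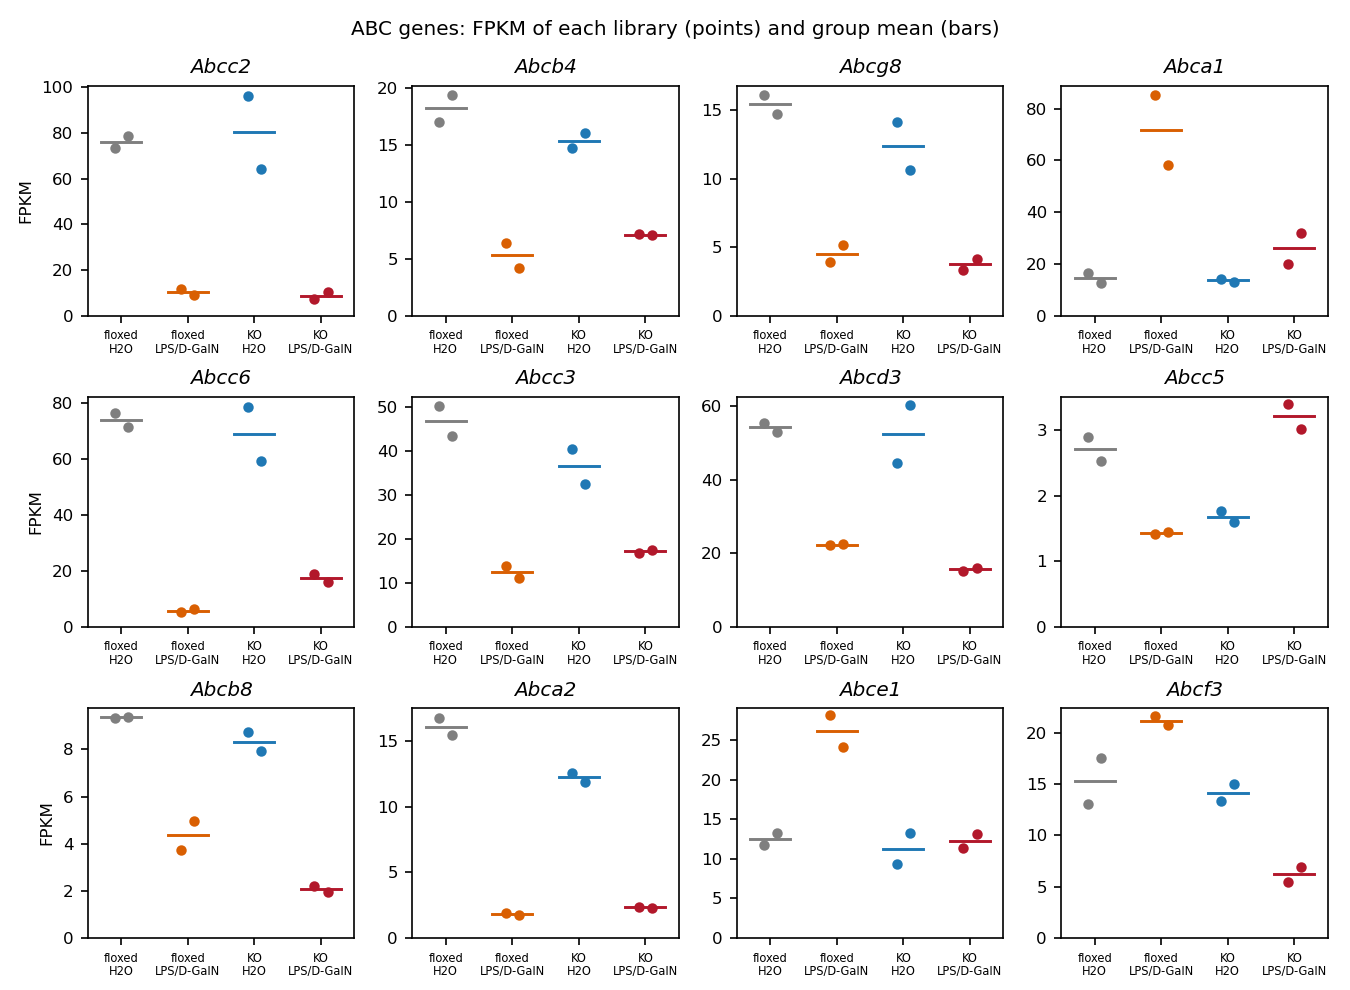
FPKM of 12 ABC genes in each library (points) with the group mean (horizontal line), for floxed and KO livers after H2O or LPS/D-GalN; each vertical axis starts at 0 and has its own range. Abcc2, Abcb4, Abcg8, Abcd3 and Abca2 are low in all injured libraries, Abca1 and Abce1 are high in injured floxed livers (means of 71.7 and 26.1 FPKM), and Abcf3 is low in injured KO livers alone (mean of 6.18 FPKM).

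Among the peroxisomal transporters, Abcd3 fell in each genotype. Abcd3, the peroxisomal protein that imports branched-chain acyl-CoA and bile acid precursors, had 55.4 and 53.0 FPKM in the floxed H2O pair of libraries, 22.2 and 22.4 in the injured floxed pair, 44.5 and 60.2 in the KO H2O pair and 15.2 and 16.1 in the injured KO pair. All injured libraries lay below all H2O libraries, and the injured KO libraries were the lowest. Abcd3 fell, at -1.24 ± 0.18 in floxed livers (adjusted p = 0.000915) against -1.66 ± 0.18 in KO livers (adjusted p = 0.00018). The difference between the injured genotypes, -0.49 ± 0.18, missed the threshold (adjusted p = 0.0537) and passed without KO H2O library 1 or 2 (adjusted p 0.0267 and 0.0269) and in 4 other settings. Abcd2, a peroxisomal fatty acyl-CoA importer, reached 1 FPKM only in floxed H2O library 2 (1.46) and lay between 0.0428 and 0.142 FPKM in injured livers, and with voom it fell in both genotypes, at -4.09 (floxed, adjusted p = 5.82e-05) and -1.79 (KO, adjusted p = 0.00545). With limma and no filter the differences of Abcd2 were -1.0 (adjusted p = 0.00877) and -0.39 (adjusted p = 0.132). Of 13 other genes of peroxisomal β-oxidation and peroxisome assembly, 6 fell and 1 rose in floxed livers and 11 fell and 0 rose in KO livers. That is 46.2% lower in floxed and 84.6% lower in KO livers, where 38.8% and 40.7% of all genes fell, and the 53.8% that passed in floxed livers lay near the 57.3% of all genes.

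The mitochondrial transporters Abcb8, Abcb10 and Abcb6 fell in each genotype. Abcb8, an inner-membrane protein linked to mitochondrial iron handling, had 9.34 and 9.38, 3.72 and 4.98, 8.73 and 7.92, and 2.20 and 1.94 FPKM in floxed H2O, injured floxed, KO H2O and injured KO libraries. It fell in each genotype and lowest in injured KO livers, without overlap. Its log2 differences were -0.96 in floxed (adjusted p = 0.00137), -1.60 in KO (adjusted p = 0.000104) and -0.79 between the injured genotypes (adjusted p = 0.00397). The interaction of -0.64 ± 0.22 missed the threshold (adjusted p = 0.0537) and passed in 4 settings and without injured floxed library 1 (adjusted p = 0.046). Abcb10, which serves haem synthesis in red cell precursors, fell at -1.24 in floxed and -1.44 in KO livers (adjusted p = 0.000954 and 0.000374) and was lower in injured KO livers by -0.58 ± 0.18 (adjusted p = 0.0295), a call lost without injured floxed library 2 or injured KO library 2 (-0.74 to -0.43, adjusted p 0.135 and 0.17) and in 3 other settings. The filter favoured a fall with injury for Abcb6, a porphyrin transporter that was tested only through H2O-treated livers. It went from 1.65 and 1.47 FPKM to 0.116 and 0.160 in floxed livers. In KO livers it went from 1.59 and 0.911 to 0.0910 and 0.194. These were falls of -1.17 and -0.96 on the log2 scale (adjusted p = 0.00106 and 0.00216). Red blood cell markers summed to 171 and 244 FPKM in KO H2O libraries and to 26158 and 3741 FPKM in injured KO libraries 1 and 2. In floxed livers they summed to 323 and 247 FPKM under H2O and to 84.5 and 90.0 FPKM after injury. The part of red cells in the level of Abcb10 was not tested. Of 12 genes of haem and iron-sulfur cluster assembly, 7 fell and 0 rose in floxed livers and 4 fell and 1 rose in KO livers. The share that passed was 58.3% in floxed livers, beside 57.3% of all genes, and 41.7% in KO livers, beside 63.0%. Iscu and Glrx5 of the iron-sulfur pathway had higher responses in KO livers, at 1.29 and 1.03, and Cpox of haem synthesis a lower one at -1.70.

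All 4 tested genes listed under lysosomes and vesicles fell in each genotype, with medians of -1.33 and -1.22. Of all genes tested, 38.8% fell in floxed and 40.7% in KO livers. Abca2, a lipid transporter of late endosomes and lysosomes, had 16.8 and 15.5 FPKM in the floxed H2O pair of libraries, 1.90 and 1.78 in the injured floxed pair, 12.6 and 11.9 in the KO H2O pair and 2.40 and 2.28 in the injured KO pair. The groups were tight and did not overlap in any comparison. Abca2 fell, at -2.59 ± 0.13 in floxed livers (adjusted p = 1.42e-05), with an 8.78-fold higher mean under H2O, and at -1.99 ± 0.13 in KO livers (adjusted p = 1.79e-05), a 5.24-fold one. The interaction of 0.60 ± 0.18 (adjusted p = 0.0337) did not pass without any of 7 libraries, injured KO library 2 being the exception (0.55 to 0.66, adjusted p 0.054 to 0.119), nor after quantile normalisation (0.0597) or the scaling without mitochondrial and haemoglobin genes (0.0542). Abcc10, a broad drug exporter whose place in this list is not a textbook assignment, fell at -1.78 and -1.28 (adjusted p = 5.58e-05 and 0.00015). Abcd4, which takes part in the release of cobalamin from lysosomes, fell at -0.89 and -1.16 and was lower in injured KO livers by -0.45 ± 0.16 (adjusted p = 0.0475). That last call did not pass with the replicate number as a block (adjusted p = 0.0549), nor without injured KO library 2, either floxed H2O library or either injured floxed library (-0.59 to -0.32, adjusted p 0.0733 to 0.215), nor in 5 further settings. Abca3, the lipid transporter of lung lamellar bodies, fell at -0.71 and -0.64. Abcb9, a lysosomal peptide transporter, was not tested, at 0.781 and 0.800 FPKM in H2O-treated and 0.0274 and 0.0984 in injured floxed livers.

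Of the A-subfamily cluster on chromosome 11 (Abca5, Abca6, Abca8a, Abca8b and Abca9), close relatives of each other between which reads can be split, the 3 tested genes fell in each genotype. Abca6 had a log2 difference of -1.42 in floxed and -1.33 in KO livers, Abca8a of -1.21 and -1.35, and Abca8b of -1.28 and -1.58, with adjusted p from 0.000206 to 0.00407. None of the 3 passed between the injured genotypes, where Abca8b was nearest at -0.42 (adjusted p = 0.0799). It passed there with voom (0.0461) and without KO H2O library 1 or 2 (0.0467 and 0.0476). Abca9 of the same cluster was under 1 FPKM, at 0.777 and 0.811 in H2O-treated and 0.0637 and 0.0263 in injured floxed livers, and fell with voom at -4.21 in floxed and -2.72 in KO livers (adjusted p = 5.34e-05 and 0.00026). Abca5 lay between 0.0739 and 0.366 FPKM, with voom differences of -0.72 (floxed, adjusted p = 0.109) and -1.21 (KO, adjusted p = 0.0236).

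Among the ABC proteins without a membrane domain, 2 of 4 rose in floxed livers, 0 fell and the median was 0.67. The 50% that passed lay below the 57.3% of all genes, of which 18.5% rose and 38.8% fell. Abce1 (ENSMUSG00000058355, chromosome 8), which splits ribosomes after termination so that they can be reused, had 11.8 and 13.3 FPKM in the floxed H2O pair of libraries, 28.1 and 24.1 in the injured floxed pair, 9.31 and 13.3 in the KO H2O pair and 11.3 and 13.1 in the injured KO pair. Only the injured floxed libraries stood above the rest. Abce1 rose by 1.00 ± 0.20 in floxed livers (adjusted p = 0.0036), and its difference in KO livers was 0.12 ± 0.20 (adjusted p = 0.608). It was lower in injured KO than injured floxed livers by -1.04 ± 0.20 (adjusted p = 0.00365). The interaction of -0.88 ± 0.28 (adjusted p = 0.0422) did not pass without any of 7 libraries, KO H2O library 1 being the exception (-1.12 to -0.65, adjusted p 0.0522 to 0.133), nor in 2 settings without the filter.

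Abcf3, a relative of the yeast translation regulator Gcn20, had 13.0 and 17.5 FPKM in the floxed H2O pair of libraries, 21.6 and 20.8 in the injured floxed pair, 13.3 and 15.0 in the KO H2O pair and 5.43 and 6.93 in the injured KO pair. The injured KO libraries were the lowest and the injured floxed ones the highest. Abcf3 fell by 1.08 ± 0.19 in KO livers (adjusted p = 0.00162) and had a difference of 0.46 ± 0.19 in floxed livers (adjusted p = 0.0672), which passed without floxed H2O library 2 (0.66, adjusted p = 0.0457) and in 3 other settings, such as median centring (0.0148). It was lower in injured KO than injured floxed livers by -1.63 ± 0.19 (adjusted p = 0.000519); its interaction was -1.54 ± 0.27 (adjusted p = 0.00512), the 2 lowest values among the 31 genes in those comparisons. Abcf2 rose in each genotype, by 0.87 in floxed (adjusted p = 0.00455) and by 0.57 in KO livers (adjusted p = 0.025), the latter not without KO H2O library 1 or injured KO library 2 (adjusted p 0.102 and 0.123), nor in 2 other settings. Abcf1, which binds initiation factor 2 and ribosomes, lay between 15.4 and 19.96 FPKM in all 8 libraries and passed in no comparison. After median centring its differences of 0.14 in floxed and 0.28 in KO livers passed as rises (0.0404 and 0.0188). Of 6 other genes of ribosome rescue and termination, 3 rose and 0 fell in floxed and 2 rose and 0 fell in KO livers, so that 50% and 33.3% passed, below the 57.3% and 63.0% of all genes. Etf1, the release factor that reads stop codons, rose by 1.82 and 1.63. The partner of Etf1, Gspt1, rose by 1.10 in floxed livers, had a difference of 0.14 in KO livers (adjusted p = 0.478) and an interaction of -0.95 (adjusted p = 0.0192).

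Abca7, Abcg3 and Abcc9 complete the tested genes. Abca7, a lipid transporter of macrophages and other cells, had 3.34 and 3.69 FPKM in the floxed H2O pair of libraries, 1.57 and 1.68 in the injured floxed pair, 3.43 and 3.09 in the KO H2O pair and 4.16 and 5.13 in the injured KO pair. The injured floxed libraries were the lowest and the injured KO libraries the highest. Abca7 fell by 0.78 in floxed livers (adjusted p = 0.00215), was 1.10 ± 0.14 higher in injured KO than injured floxed livers (adjusted p = 0.000685), and had an interaction of 1.18 ± 0.19 (adjusted p = 0.00435), all held in every setting. Its rise of 0.40 in KO livers (adjusted p = 0.0336) did not pass without any of 7 libraries, injured KO library 1 being the exception (0.28 to 0.53, adjusted p 0.0554 to 0.143), nor in 5 other settings. The filter favoured a fall with injury for Abcg3, a rodent relative of Abcg2 also tested only through H2O-treated livers. Abcg3 fell from 2.40 and 2.03 FPKM to 0.101 and 0.108 in floxed livers. In KO livers it fell from 1.29 and 1.06 to 0.182 and 0.159. On the log2 scale it fell at -1.54 in floxed and -0.89 in KO livers (adjusted p = 0.000116 and 0.00101). Its interaction of 0.65 ± 0.20 (adjusted p = 0.0381) did not pass without any of 6 libraries, the exceptions being KO H2O library 1 and injured KO library 2 (0.56 to 0.73, adjusted p 0.0607 to 0.126), nor in 6 other settings, voom among them (0.0606).

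Abcc9, the sulfonylurea receptor of vascular potassium channels, had 2.60 and 2.66, 1.54 and 1.38, 1.60 and 1.72, and 3.38 and 1.81 FPKM in floxed H2O, injured floxed, KO H2O and injured KO libraries. The injured KO libraries differed widely from each other. Abcc9 fell by 0.56 in floxed livers (adjusted p = 0.0441) and had a difference of 0.40 in KO livers (adjusted p = 0.118), which was 0.72 (adjusted p = 0.00604) without injured KO library 2. The same omission took the difference between the injured genotypes from 0.51 (adjusted p = 0.0639) to 0.83 (adjusted p = 0.00466). The fall in floxed livers (adjusted p 0.0624 to 0.159) and the interaction of 0.96 ± 0.29 (adjusted p = 0.0338, then 0.0688 to 0.0971) did not pass without any 1 of the 6 libraries outside the injured KO group, nor in 4 and 2 other settings. Its relative Abcc8, the receptor of pancreatic beta cells, was at 0 in 5 of 8 libraries and at most 0.0406 FPKM. The remaining 9 genes (Abca4, Abca12 to Abca17, Abcb5 and Abcc12) did not exceed 0.248 FPKM in any library. Among them Abca4, the retinoid transporter of photoreceptors, had 0.0195 and 0.00905 FPKM in the KO H2O pair and 0.164 and 0.152 in the injured KO pair, and rose with voom at 3.34 ± 0.72 (adjusted p = 0.00152). That rise rests on 5 and 2 fragments in the KO H2O pair and 49 and 39 in the injured KO pair. Without the injured KO pair Abca4 would not have met the voom filter, so its direction was favoured by that filter. A pair of ABC genes that the name pattern does not take in, the peptide transporters Tap1 and Tap2 of antigen presentation, rose by 3.10 and 1.88 in KO livers, with interactions of 2.50 and 1.48 (adjusted p = 0.00127 and 0.00283).

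**Figure D4:**
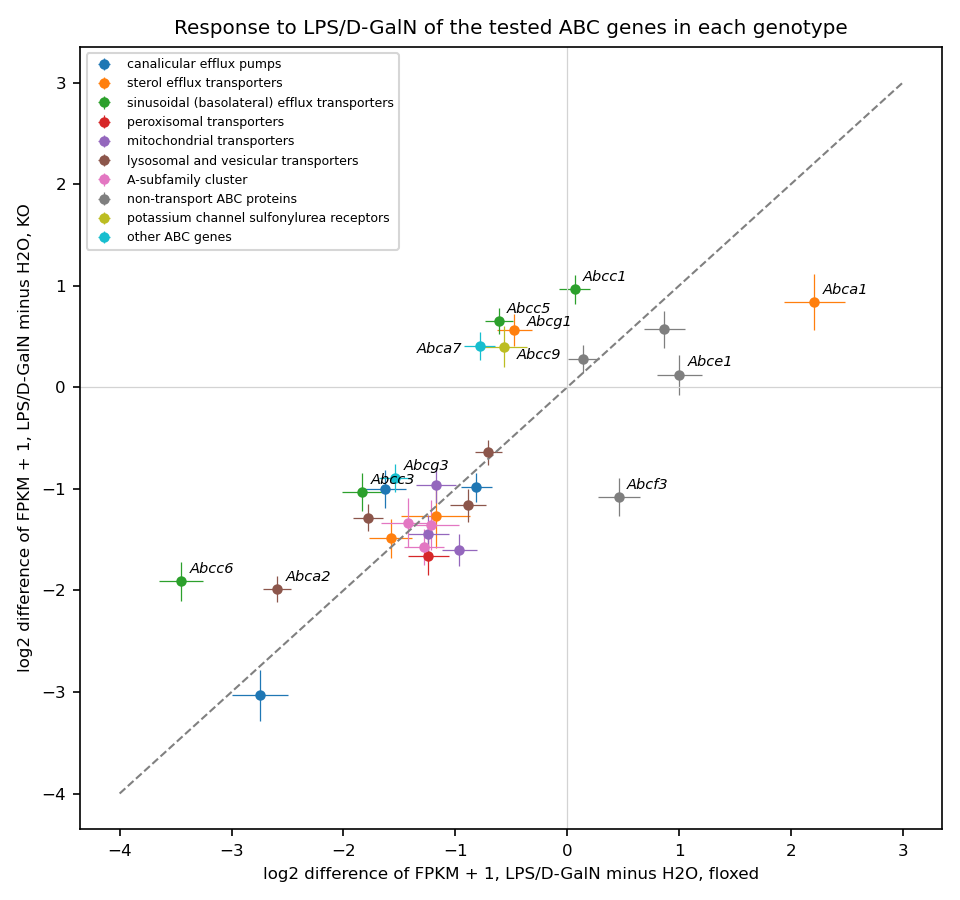
Log2 difference of FPKM + 1 between LPS/D-GalN and H2O in floxed (horizontal axis) and KO livers (vertical axis) for 29 of the 31 tested ABC genes, coloured by role; bars are 1 SE and the dashed line marks equal responses. The 12 named genes passed the interaction test, 9 above the line, such as Abcc6 at 1.54, and 3 below it, such as Abcf3 at -1.54; the axes share no samples.

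Read across both genotypes, 20 ABC genes fell in each, Abca1 and Abcf2 rose in each, and Abca7, Abcc5 and Abcg1 fell in floxed and rose in KO livers. The 20 include Abcb6 and Abcg3, for which the filter favoured a fall. Abce1 rose and Abcc9 fell in floxed livers alone, Abcc1 rose and Abcf3 fell in KO livers alone, and Abcf1 passed in neither. For these, a call in 1 genotype alone is no test of a difference. The interaction passed for Abce1, Abcc9, Abcc1 and Abcf3, and it did not for Abcf1 at 0.13 ± 0.20 (adjusted p = 0.627). It passed in every setting for 7 genes, among them Abca7, Abcc1, Abcc5, Abcc6, Abcf3 and Abcg1. For Abcc1 and Abcg1 the filter favoured the direction of that interaction. Between the injured genotypes 10 of the 12 calls held in every setting, with Abcb10 and Abcd4 as the exceptions. For injury 23 of 27 calls in floxed and 23 of 28 in KO livers did so.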

How the data were processed

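Mouse liver RNA was sequenced on an Illumina instrument after library preparation with the NEBNext Ultra kit, per the labels' protocols. The authors deposited 1 table of FPKM values with 55416 genes and 1 column per library, and each column was assigned to 1 of the 8 samples through its description. The submitters' processing notes name DESeq2 3.15 and the build GRCm39, without saying what DESeq2 was used for; no source used here names the aligner, counter or annotation. Multiplied by GENCODE M21 exon length (52083 genes matched), between 98.2% and 98.5% of the values above 0 lay within 0.01 of a whole fragment, which gave the total of assigned fragments of each library.

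The ABC genes were found by the pattern of their symbols, and 3 genes that match are not reported here, 2 of which are included in counts, medians and summed levels. The genes, the lists by role and the related lists were chosen with earlier results of these data known. Values were tested as log2(FPKM + 1) with limma 3.58.1 in R 4.3.3, over the 13708 genes that had 1 FPKM or more in 2 or more libraries, in a model with 1 mean per group and 4 residual degrees of freedom, with a variance trend. The p-values were two-sided and adjusted by Benjamini-Hochberg over all those genes in each of the 5 comparisons, at a threshold of 0.05. The procedure was first tested on simulated data. Lists are described by counts and medians alone. Every other ABC gene may be named, and at most 4 genes with the smallest p of each related list. Alternatives were a pseudocount of 0.1, no filter, median centring, quantile normalisation, a scaling without mitochondrial and haemoglobin genes, array weights, a block for the replicate number, a model of the compared groups alone, and the omission of each library in turn. Voom on the recovered fragments (17850 genes with at least 10 fragments in 2 libraries) and a pseudocount of 0.1 with no filter were added after the values were seen. Promoter sequences come from RefSeq on GRCm38.p6, an older build than the one in the notes, and no coordinates are moved between them. Python 3.11.15, pandas 2.3.3, numpy 2.4.6 and matplotlib 3.10.9 made the tables and figures.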

Additional observations from a re-analysis of the deposited data

Results flagged for a closer look

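The response to LPS/D-GalN differed between the genotypes for 13 of the 31 tested ABC genes, by the genotype by injury interaction of limma (36.0% of all genes tested passed). A higher response in KO livers was seen for Abcc6 at a log2 interaction of 1.54, Abcc5 at 1.26, Abca7 at 1.18, Abcg1 at 1.03, Abcc9 at 0.96, Abcc1 at 0.90, Abcc3 at 0.80, Abcg3 at 0.65 and Abca2 at 0.60. Lower responses were seen among others for Abcf3 at -1.54, Abca1 at -1.37 and Abce1 at -0.88. Of the 13 calls 7 held in every setting, and those of Abca1, Abca2, Abcc3, Abcc9, Abce1 and Abcg3 were lost in some setting. For Abcc1 and Abcg1 the direction was favoured by the filter. Groups of 2 libraries are too small to be searched for a library that stands apart in 1 gene.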

How the results depend on the processing

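No difference of an ABC gene that passed turned its direction in any setting. The number of ABC genes called between the injured genotypes, 12 as reported, was 20 with voom on the recovered fragments, which tested 43 of the 49 genes. The number with an interaction, 13 as reported, was 8 with a pseudocount of 0.1 and no filter and from 7 to 11 when 1 library was left out. Leaving out 1 library gave 24 to 27 calls for injury in floxed livers (27 as reported), 23 to 27 in KO livers (28) and 10 to 14 between the injured genotypes. With the replicate number as a block there were 27, 28, 11, 0 and 13 calls in the 5 comparisons, and Abcd4 between the injured genotypes (adjusted p = 0.0549) was the only call that the block changed. The titles share replicate numbers but do not say that they mark a batch, and deviations of same-numbered libraries correlated from -0.10 to 0.27 between groups, so the numbers were not taken to pair them. These omissions leave 1 library in a group, whose spread is then taken from the other groups. Genes under 1 FPKM rest on few fragments, so a fall or rise in them may go undetected, and with 2 libraries a group no interval of a group mean is given.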
